A study of Mus musculus with 16 samples.

Results

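The granzymes and perforin make up the killing load of cytotoxic lymphocytes. This account follows 10 of their genes in the mouse, Gzma, Gzmb, Gzmc, Gzmd, Gzme, Gzmf, Gzmg, Gzmk, Gzmm and Prf1, picked by gene symbol from the 55573 genes of the deposited count table. Of the 10 genes, 9 were among the 13711 genes that passed the filter on low counts and were tested, and Gzmg was not. RNA was sequenced from C57BL/6 OT1 CD8 T cells, whose T cell receptor is a transgene specific for ovalbumin (OVA). The cells had been transferred into mice with tumours and were sorted from the tumours after 5 days, stained for CD8 and for CD45.1 and/or CD90.1 and with a dye for dead cells. The 16 libraries form 4 groups of 4, labelled Foxp3UP, MockUP, Foxp3DN and MockDN, and the series describes mice that received Foxp3UP and Mock cells as a mixture. Foxp3 is the transcription factor that defines regulatory T cells. The sources used here do not give how the Foxp3 groups were made, what UP and DN stand for, the age of the mice or the tumour. The labels do not say whether libraries of 1 group came from separate mice, so the p-values measure the spread between libraries, which may be technical.

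Cytotoxic T cells store perforin and granzymes in lysosome-like granules and release them at the contact with a target cell. Perforin opens the target's membrane, and the granzymes that pass through cleave proteins inside it. Granzyme B cuts after aspartate and activates caspases, granzymes A and K cut after basic residues, and granzyme M prefers methionine or leucine. In the mouse a cluster on chromosome 14 holds Gzmb and several close relatives, from Gzmc to Gzmg.

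All levels below are CPM, a library's counts for a gene scaled to its total with the TMM factors of edgeR. A fold change is a log2 fold change from edgeR with its standard error (SE), and a gene is called when its p, adjusted by the Benjamini-Hochberg method over all 13711 genes tested, is under 0.05. Libraries held 9389477 to 13226590 counts. Foxp3 mRNA had 15.2 to 29.5 CPM in Foxp3UP and 11.5 to 13.7 CPM in MockUP libraries (log2 fold change 0.92 ± 0.17, edgeR adjusted p = 0.00233; 0.94 and 0.0038 without MockUP replicate 2). It had 10.1 to 10.4 CPM in Foxp3DN and 11.0 to 14.6 CPM in MockDN libraries, which did not overlap, without being called (−0.33 ± 0.17, edgeR adjusted p = 1.00). MockUP replicate 2 stood apart from the other libraries: it lay at −52.8 on the second principal component, where the other 15 lay between −13.4 and 30.1. Its correlation of level with gene length was 0.398, against 0.279 to 0.323 in the others, and it had the lowest share of mitochondrial counts at 0.279%. Calls in Foxp3UP against MockUP, in the difference of effects and in MockUP against MockDN are therefore also given for fits without it.

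The 7 markers of CD8 T cells summed to 4182 to 7067 CPM a library. Without a block edgeR called none of them in any of the 5 comparisons, and 1 had an unadjusted p under 0.05 in Foxp3UP against MockUP. With the replicate block described below Cd3g was called higher there. With the block by pair within UP and within DN, also described below, Cd3g, Cd8a and Cd8b1 were called higher there. Natural killer cells also carry granzymes and perforin. Their receptor Ncr1 had 0 to 5 counts a library, and the 6 natural killer markers together summed to 43.1 to 56.4 CPM in Foxp3UP against 28.6 to 68.1 CPM in MockUP libraries, and to 48.1 to 62.8 CPM in Foxp3DN against 39.1 to 63.1 CPM in MockDN libraries. Most of that sum was Klre1, at 27.4 to 64.9 CPM, and Ncr1 and Klra4 were at 0 in all 4 MockUP libraries. The 7 myeloid markers summed to 44.1 to 63.9 CPM in Foxp3UP against 32.8 to 48.4 CPM in MockUP libraries, and 33.1 to 53.6 CPM in Foxp3DN against 33.1 to 40.2 CPM in MockDN libraries. Of these, Cd68 was called higher in Foxp3UP than in MockUP (0.86 ± 0.16, edgeR adjusted p = 0.00207), and none of the 7 was at 0 in a whole group. Mast cell and basophil markers summed to at most 9.52 CPM and B cell markers to at most 1.26 CPM. Fibroblast and endothelial markers summed to 54.4 to 65.8 CPM in Foxp3UP against 48.8 to 68.6 CPM in MockUP libraries, mostly Pecam1. With the replicate block the fibroblast marker Col3a1 and the CD4 T cell marker Zbtb7b were called higher in Foxp3UP than in MockUP, and the mast cell marker Kit lower. The block by pair also called the melanocyte marker Mlana higher. Markers of CD4 T cells summed to 16.1 to 20.7 CPM in Foxp3UP and 17.4 to 27.8 CPM in MockUP libraries, with Cd40lg called lower (−1.23, edgeR adjusted p = 0.0014). Melanocyte lineage markers summed to 61.7 to 143 CPM in Foxp3UP against 63.1 to 94.3 CPM in MockUP libraries, and to 36.2 to 81.2 CPM in Foxp3DN against 22.8 to 72.9 CPM in MockDN libraries, with none of the 5 called by edgeR without a block. Without MockUP replicate 2, Klre1 was also called lower in Foxp3UP than in MockUP, and Itgam and the CD4 T cell marker Zbtb7b higher. The part of these cells in the results below was not tested. In bulk RNA, fewer cells of a type and less RNA per cell cannot be told apart.

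Of the members, 6 sit on the minus strand of chromosome 14 between chr14:56117626 and chr14:56262260 in mm10, in the order Gzme, Gzmd, Gzmg, Gzmf, Gzmc and Gzmb. Gzmn, a relative that is no member, lies between Gzmg and Gzmf and had 0 counts in every library. The coding sequences of Gzmd and Gzme were identical at 94.8% of aligned bases, those of Gzme and Gzmg at 89.5%, and those of Gzmb and Gzmc at 76.6%. The windows of 45 coding bases around the codon of the catalytic serine, in capitals, are printed to compare the relatives. They come from GENCODE M21 transcripts on GRCm38, the assembly of mm10.
Gzmb: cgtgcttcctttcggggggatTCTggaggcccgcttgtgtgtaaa
Gzmc: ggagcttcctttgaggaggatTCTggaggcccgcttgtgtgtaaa
Gzmd: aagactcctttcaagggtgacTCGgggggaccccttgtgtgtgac
Gzme: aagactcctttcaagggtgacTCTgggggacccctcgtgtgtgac
Gzmf: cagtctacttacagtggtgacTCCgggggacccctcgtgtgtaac
Gzmg: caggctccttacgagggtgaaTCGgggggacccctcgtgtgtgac
The Gzmd window matched that of Gzme at 43 of 45 bases, the Gzmg window at 39 and the Gzmf window at 37, and the Gzmc window matched that of Gzmb at 40. Against the Gzmb window those of Gzmd, Gzme, Gzmf and Gzmg each matched at 28 bases. Outside the cluster Gzmk, Gzma and Gzmm matched the Gzmb window at 28, 27 and 29 bases. They matched the Gzme window at 30, 28 and 35, so this window alone does not set the cluster apart. Over whole transcripts, 21.9% of the stretches of 50 bases in Gzmd, 20.6% in Gzme, 19.8% in Gzmg, 7.36% in Gzmf and 4.14% in Gzmc also occurred in another gene of the cluster. For Gzmb, Gzma, Gzmk, Gzmm and Prf1 the share was 0. The sources used here do not give how reads that fit several genes were counted, so single values of Gzmd, Gzme and Gzmg are uncertain.

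Upstream of their start sites the members of the cluster had a motif in common. Among the 250 bases before the RefSeq start (GRCm38.p6), the letters TGTGGTT, the core bound by Runx factors, occurred on either strand in 7 of the 9 granzymes, and in 4.40% of all 32851 RefSeq promoters. The matches in Gzmc, Gzmd, Gzme, Gzmf and Gzmg lay 175 to 196 bases before the start within similar surroundings, and that of Gzmb lay 34 bases before it. Matches within a shared stretch are not independent, so the 7 of 9 cannot be weighed against the 4.40%. These windows of 41 bases are printed because they show the shared stretch. Capitals mark the motif, which reads AACCACA on the reverse strand.
Gzmb, chr14:56262345-56262385, minus strand: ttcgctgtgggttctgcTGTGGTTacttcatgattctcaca
Gzmc, chr14:56234809-56234849, minus strand: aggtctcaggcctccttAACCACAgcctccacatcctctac
Gzmd, chr14:56132745-56132785, minus strand: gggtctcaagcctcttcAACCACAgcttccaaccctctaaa
Gzme, chr14:56120778-56120818, minus strand: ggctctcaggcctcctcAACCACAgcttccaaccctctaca
Gzmf, chr14:56211580-56211620, minus strand: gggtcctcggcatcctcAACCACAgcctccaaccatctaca
Gzmg, chr14:56159747-56159787, minus strand: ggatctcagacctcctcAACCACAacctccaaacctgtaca
Against the Gzme window the Gzmd window was identical at 37 of 41 bases, those of Gzmg, Gzmf and Gzmc at 35, 34 and 28, and that of Gzmb at 15. Gzma held the motif 51 bases before its start, while Gzmk, Gzmm and Prf1 did not hold these letters in the window. Gzmn, which lies inside the cluster but is no member, did not hold them either. Gzmb also held the AP-1 motif TGANTCA, 58 bases before its start, a motif found in 6.75% of promoters. The T-box core GGTGTGA, in 3.33% of promoters, lay 75 bases before the Gzmk start and 189 bases before 1 Gzmm start. The STAT letters TTCNNNGAA, in 7.02% of promoters, lay 86 bases before another Gzmm start. No member held the longer T-box letters AGGTGTGA, the Ets letters CCGGAAGT or the TATA box letters TATAAA. The forkhead letters TGTTTAC, the core bound by Foxp3 and its relatives, were in none of the members' windows and in 3.17% of all promoters. A match is a description of the letters and says nothing of binding, and the absence of a match says only that these letters were not in this window. Positions are from the RefSeq start, which can differ from the gene coordinates given below. The 250 bases of Gzmb reach down to chr14:56262335, while the gene as counted begins at chr14:56262260 on the minus strand.

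Perforin and 2 granzymes were called higher in Foxp3UP than in MockUP cells: 3 of the 9 tested members rose, 0 fell and 6 were not called. Over all genes tested 12.1% were called in this comparison, 6.08% higher and 5.99% lower. The libraries of the 2 groups did not overlap for these 3 members, against 15.9% of all genes in either direction. The median log2 fold change was 0.32 over the 9 members and 0.0041 over all genes. In Foxp3DN against MockDN cells 0 of 9 members were called by edgeR, 0 had an unadjusted p under 0.05 and 0 were called by DESeq2, where 0.00729% of all genes were called. Without MockUP replicate 2, 2 members were called higher in Foxp3UP than in MockUP, Gzmb and Gzmk, and 0 lower, where 13.1% of all genes were called, 6.45% higher and 6.67% lower. Values of each library are drawn for all 10 members.

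**Figure D1:**
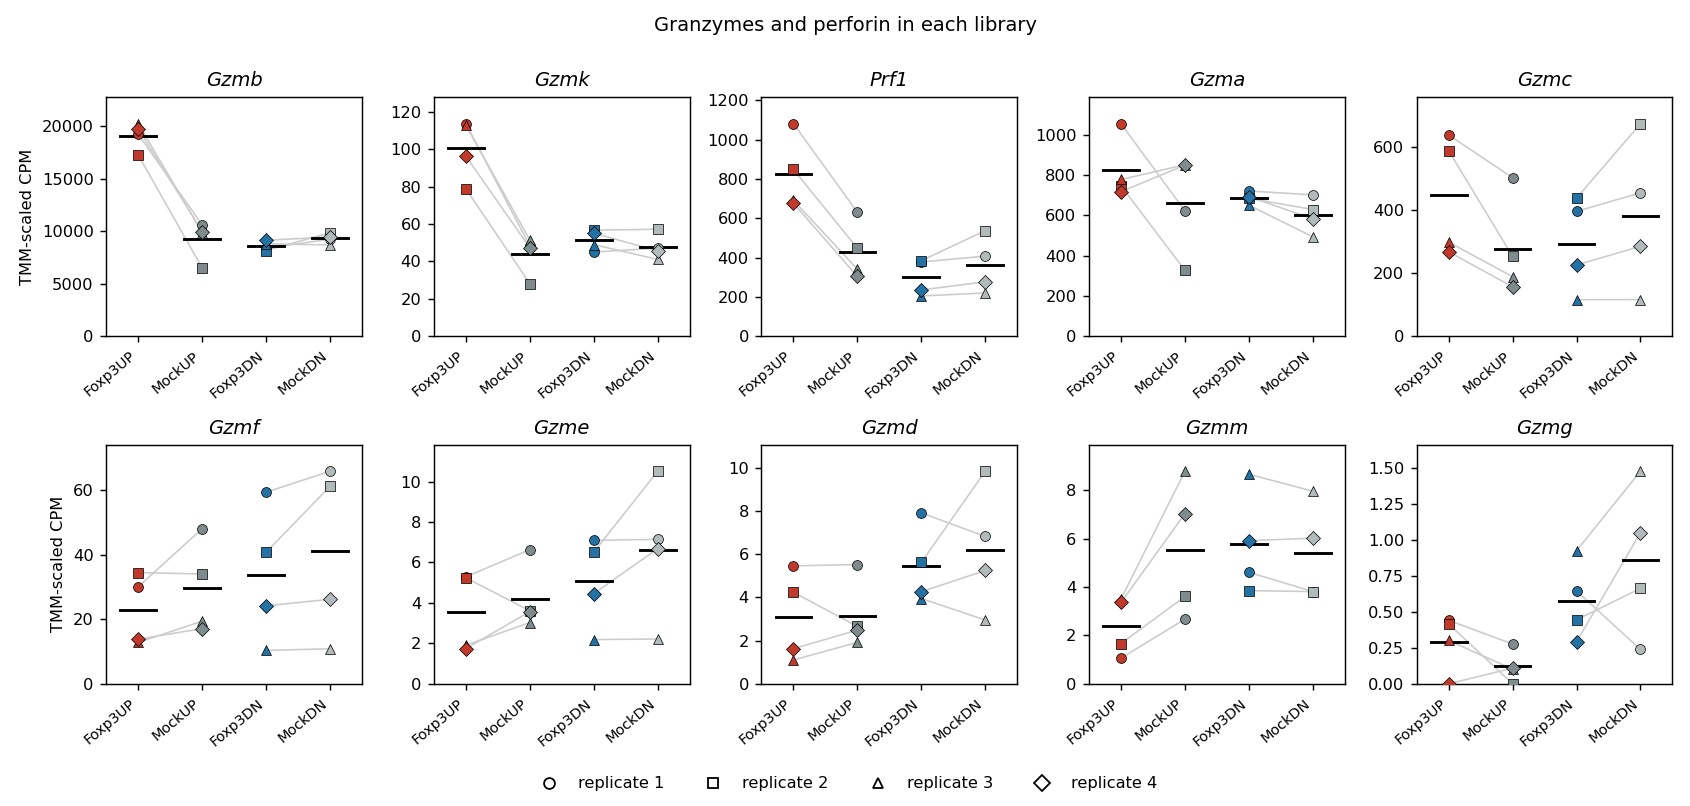
Level of each of the 10 members in the 16 libraries, as TMM-scaled CPM on a linear axis that starts at 0. Points are libraries, the shape gives the replicate number, bars are group means over 4 libraries and grey lines join libraries of the same replicate number within UP and within DN. For Gzmb, Gzmk and Prf1 all 4 Foxp3UP points lie above all other points, and for Gzmm each Foxp3UP point lies below the MockUP point of its number.

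Gzmb (chr14:56258838-56262260, minus strand) encodes granzyme B, the main caspase-activating protease of the granule. It had 19205, 17243, 20229 and 19741 CPM in Foxp3UP libraries, against 10607, 6500, 9872 and 9965 CPM in MockUP libraries. In Foxp3DN libraries it had 8382, 8163, 8799 and 9136 CPM, against 9247, 9853, 8693 and 9452 CPM in MockDN libraries. All 4 Foxp3UP libraries lay above the other 12, and the other 3 groups overlapped each other. How many of all genes set Foxp3UP above the other 12 libraries was not counted, here or for the members below. The log2 fold change in Foxp3UP against MockUP was 1.05 ± 0.13 (2.07-fold, edgeR adjusted p = 0.000109), and without MockUP replicate 2 it was 0.91 (edgeR adjusted p = 1.2e-05). In Foxp3DN against MockDN it was −0.11 ± 0.13 (edgeR adjusted p = 1.00), and the difference between the 2 effects was itself called (1.16 ± 0.18, edgeR adjusted p = 0.00392). By number, 227 genes had a larger log2 fold change than Gzmb in Foxp3UP against MockUP. Within pairs of the same replicate number, Foxp3UP over MockUP was 1.81 to 2.65.

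Gzmk (chr13:113171608-113225908, minus strand) encodes granzyme K, a trypsin-like protease. It was much scarcer, with 113.6, 78.9, 112.9 and 96.2 CPM in Foxp3UP libraries and 48.4, 28.1, 51.5 and 47.4 CPM in MockUP libraries. Foxp3DN libraries had 45.0, 56.7, 49.0 and 55.1 CPM, and MockDN libraries 47.1, 57.2, 41.1 and 45.5 CPM. As for Gzmb, the 4 Foxp3UP libraries lay above all others and the remaining groups overlapped. The log2 fold change in Foxp3UP against MockUP was 1.20 ± 0.17 (2.29-fold, edgeR adjusted p = 0.000372), and 1.03 without MockUP replicate 2 (edgeR adjusted p = 0.000176). The difference between the UP and the DN effect was 1.09 ± 0.24 (edgeR adjusted p = 0.0264). That call was lost in 8 of 26 alternatives, among them leaving out Foxp3UP replicate 1 or 3, Foxp3DN replicate 1 or 3, or MockDN replicate 1 or 2, with edgeR adjusted p between 0.0545 and 0.0639. It was also lost within replicates 1 and 2 and within replicates 3 and 4, with the edgeR adjusted p at most 0.214.

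Prf1 (chr10:61297833-61304680, plus strand) encodes perforin, the pore-forming protein through which granzymes enter. It had 1081, 848.6, 691.5 and 676.9 CPM in Foxp3UP libraries, against 630.7, 447.3, 340.8 and 304.3 CPM in MockUP libraries. It had 377.9, 384.4, 205.3 and 235.8 CPM in Foxp3DN libraries, against 407.7, 537.6, 220.1 and 276.9 CPM in MockDN libraries. Again each Foxp3UP library lay above the other 12, and within every group replicates 1 and 2 lay above replicates 3 and 4. The log2 fold change in Foxp3UP against MockUP was 0.94 ± 0.29 (1.91-fold, edgeR adjusted p = 0.0476). This call rested close to the threshold: it was lost in 11 of 19 alternatives, including 7 of the 8 that left out a library, with MockUP replicate 2 among them (0.95, edgeR adjusted p = 0.104). The replicate numbers paired the libraries within UP and within DN, but not clearly across UP and DN. There most libraries correlated better with another number than with their own. A replicate block over all libraries gives a number the same effect in UP and DN. Calls made with it are therefore less certain, here and elsewhere. With the replicate number as a block over all libraries the log2 fold change was 0.97 ± 0.13 (edgeR adjusted p = 0.000194). Foxp3UP over MockUP was 1.71 to 2.23 in the 4 pairs, while Foxp3DN over MockDN was 0.715 to 0.933. The difference between the UP and the DN effect was 1.20 ± 0.41 and was not called (edgeR adjusted p = 0.154), but was called with the block (1.21, edgeR adjusted p = 0.0017). Blocking by pair within UP and within DN, chosen after the data were seen, also called Prf1 in Foxp3UP against MockUP and in the difference. It called 3475 and 1739 of all 13711 genes there.

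Gzma (chr13:113093825-113100981, minus strand) encodes granzyme A, the other abundant trypsin-like granzyme. It had 1055, 746.7, 778.3 and 717.7 CPM in Foxp3UP libraries and 621.7, 326.7, 851.3 and 849.5 CPM in MockUP libraries, so the groups overlapped. It was not called (0.32 ± 0.22, edgeR adjusted p = 0.379; 0.091 without MockUP replicate 2). Within replicates 1 and 2 its log2 fold change was 0.93 (edgeR adjusted p = 0.0228), and within replicates 3 and 4 it was −0.19 (edgeR adjusted p = 0.675). Foxp3DN libraries had 721.2, 684.8, 650.5 and 693.0 CPM, and MockDN libraries 701.7, 629.0, 493.5 and 582.8 CPM. Gzma was higher in the Foxp3DN library of all 4 DN pairs, by a ratio of 1.03 to 1.32, without being called (0.19 ± 0.22, edgeR adjusted p = 1.00).

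Gzmm (chr10:79689020-79695261, plus strand) encodes granzyme M, which natural killer cells also carry. It was scarce, with 1.06, 1.66, 3.51 and 3.36 CPM in Foxp3UP libraries, against 2.67, 3.61, 8.78 and 7.03 CPM in MockUP libraries, from 12 to 87 counts a library. The groups overlapped, but each Foxp3UP library lay below the MockUP library of its number, by a ratio of 0.396 to 0.479. Without a block Gzmm was not called (−1.22 ± 0.43, edgeR adjusted p = 0.0734), and with the replicate block it was (−1.19 ± 0.20, edgeR adjusted p = 0.000779). DESeq2 without a block also called it (DESeq2 adjusted p = 0.0279). Without MockUP replicate 2 its log2 fold change was −1.38 (edgeR adjusted p = 0.059). In DN, Foxp3DN libraries had 4.61, 3.85, 8.66 and 5.91 CPM and MockDN libraries 3.81, 3.81, 7.95 and 6.01 CPM, with a log2 fold change of 0.09 ± 0.39 (edgeR adjusted p = 1.00). The difference between the effects was −1.31 ± 0.58 (edgeR adjusted p = 0.276), and −1.29 with the block (edgeR adjusted p = 0.0106). Blocking by pair within UP and within DN also called Gzmm lower, in Foxp3UP against MockUP and in the difference.

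Gzmc (chr14:56231441-56234656, minus strand) is the neighbour of Gzmb and encodes granzyme C, a mouse protease that can kill without the caspase preference of granzyme B. It had 638.6, 588.4, 298.7 and 268.0 CPM in Foxp3UP libraries, against 502.9, 253.8, 189.0 and 156.9 CPM in MockUP libraries. Foxp3DN libraries had 396.1, 438.2, 116.1 and 226.0 CPM, and MockDN libraries 455.0, 674.1, 116.4 and 285.4 CPM. The groups overlapped, although Foxp3UP was above MockUP in all 4 pairs, by a ratio of 1.27 to 2.32. Gzmc was not called in Foxp3UP against MockUP (0.70 ± 0.55, edgeR adjusted p = 0.457), nor without MockUP replicate 2 (0.66, edgeR adjusted p = 0.573), nor with the replicate block over all libraries (0.71, edgeR adjusted p = 0.0581). A block by pair within UP and within DN, added after the data were seen, called it (0.75 ± 0.12, edgeR adjusted p = 0.00102), in a fit that called 25.3% of all genes.

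The remaining genes of the cluster, whose products in the mouse are less well described, were not called in Foxp3UP against MockUP without a block. Gzmf (chr14:56205263-56211417) had 30.1, 34.4, 12.8 and 13.8 CPM in Foxp3UP libraries, against 48.0, 33.98, 19.4 and 17.1 CPM in MockUP libraries. Its groups overlapped and it was not called (−0.38 ± 0.61, edgeR adjusted p = 0.754; −0.30 and 0.841 without MockUP replicate 2). The block by pair within UP and within DN called it lower (−0.38 ± 0.13, edgeR adjusted p = 0.0448), with Foxp3UP below MockUP in 3 of 4 pairs. Gzmd (chr14:56129556-56132608) ranged from 1.10 to 5.46 CPM in Foxp3UP and from 1.92 to 5.53 CPM in MockUP libraries, and Gzme (chr14:56117626-56120625) from 1.74 to 5.29 CPM in Foxp3UP and from 3.03 to 6.63 CPM in MockUP libraries. Neither was called: the log2 fold changes were −0.0015 ± 0.48 for Gzmd (edgeR adjusted p = 0.999) and −0.23 ± 0.47 for Gzme (edgeR adjusted p = 0.807), and −0.077 and −0.30 without MockUP replicate 2. Because these paralogues may share reads, their sum with Gzmf was also taken. It averaged 29.4 ± 15.0 CPM in Foxp3UP and 37.0 ± 17.3 CPM in MockUP libraries (SD, n = 4 each). Within pairs the sum was lower in the Foxp3UP library for replicates 1, 3 and 4, by a ratio of 0.651 to 0.741, and higher for replicate 2, by a ratio of 1.09. In DN the sum averaged 44.1 ± 25.0 CPM in Foxp3DN and 53.8 ± 32.2 CPM in MockDN libraries (SD, n = 4 each). Its ratio in the 4 DN pairs was 0.932, 0.648, 1.03 and 0.862. The log2 fold changes in Foxp3DN against MockDN were −0.19 for Gzmd, −0.39 for Gzme and −0.29 for Gzmf, none called. Their difference between the UP and the DN effect was not called either. Gzmg (chr14:56156582-56159579) had 0 to 5 counts in Foxp3UP against 0 to 3 in MockUP libraries, and 3 to 11 in Foxp3DN against 3 to 18 in MockDN libraries, too few to test.

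**Figure D2:**
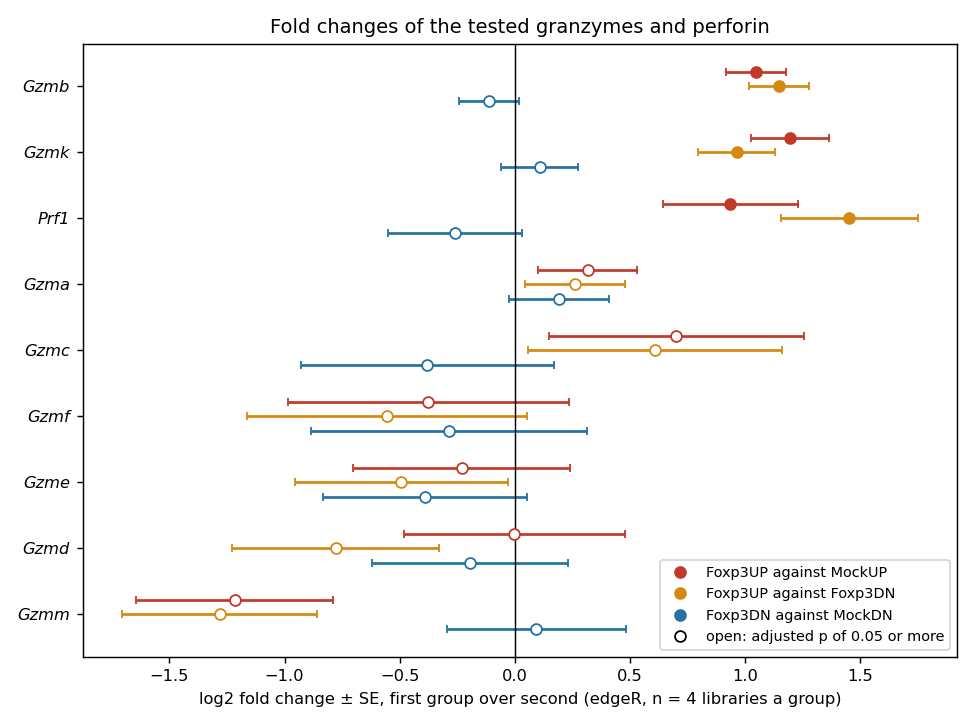
Log2 fold changes of the 9 tested members with their standard errors, from edgeR, for Foxp3UP against MockUP, Foxp3UP against Foxp3DN and Foxp3DN against MockDN, each from 4 libraries a group. Filled points are called at an adjusted p under 0.05. Gzmb, Gzmk and Prf1 are filled in the first pair of comparisons, from 0.94 to 1.45, and no point is filled for Foxp3DN against MockDN.

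The same 3 genes set Foxp3UP apart from Foxp3DN cells. Of the 9 tested members, 3 were called higher, 0 lower and 6 were not called, where 11.8% of all genes were called, 6.00% higher and 5.78% lower. This comparison shares the Foxp3UP libraries with the comparison above. Among markers of other cells, Cd68 (0.97 ± 0.16, edgeR adjusted p = 0.000929) and the fibroblast collagen Col3a1 (4.68 ± 1.18, edgeR adjusted p = 0.0199) were called higher in Foxp3UP than in Foxp3DN. Col3a1 averaged 1.97 ± 1.74 CPM in Foxp3UP and 0.0651 ± 0.0813 CPM in Foxp3DN libraries (SD, n = 4 each). Cd40lg (−1.58 ± 0.21, edgeR adjusted p = 0.000189) and the natural killer marker Klrb1c (−1.37 ± 0.43, edgeR adjusted p = 0.0455) were called lower, and with the block the melanocyte markers Pmel and Dct were called higher, Pmel also by DESeq2 without a block. Their part in the result was not tested. The log2 fold changes were 1.15 ± 0.13 for Gzmb (edgeR adjusted p = 4.3e-05), 0.96 ± 0.17 for Gzmk (edgeR adjusted p = 0.00155) and 1.45 ± 0.30 for Prf1 (edgeR adjusted p = 0.00498). The libraries did not overlap for these 3 and for Gzmm, 4 of 9 members, against 22.9% of all genes. Gzmm was not called without a block (−1.28 ± 0.42, edgeR adjusted p = 0.0571), and was with it (−1.31 ± 0.20, edgeR adjusted p = 0.000329). With the block Gzmd was called lower as well (−0.88 ± 0.26, edgeR adjusted p = 0.0263), from 1.10 to 5.46 CPM in Foxp3UP and 3.95 to 7.92 CPM in Foxp3DN libraries. The block then called 3 members higher and 2 lower, where 20.1% of all genes were called, 11.0% higher and 9.13% lower. This block pairs Foxp3UP with Foxp3DN libraries by number, although most Foxp3UP libraries correlated better with another number than with their own. Its calls in this comparison are therefore less certain.

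In MockUP against MockDN cells 0 of 9 members were called by edgeR and 0 by DESeq2, where edgeR called 0.00729% of all genes. Only Gzmd had an unadjusted p under 0.05, at −0.97 ± 0.45. Without MockUP replicate 2 edgeR also called 0 of the 9, and 1, Gzma at 0.36 ± 0.14, had an unadjusted p under 0.05. Gzmb had a log2 fold change of −0.01 ± 0.13, Gzmk −0.12 ± 0.17 and Prf1 0.26 ± 0.29 (edgeR adjusted p = 1.00 for each). For the difference between the UP and the DN effect, 2 members were called higher, 0 lower and 7 were not called, where 1.83% of all genes were called, 0.963% higher and 0.868% lower. The 2 were Gzmb and Gzmk, and they were also the 2 called without MockUP replicate 2. With the replicate block the counts were 3 higher, Gzmb, Gzmk and Prf1, and 1 lower, Gzmm, where 5.91% of all genes were called, 2.94% higher and 2.98% lower. With that block Foxp3UP against MockUP had 3 members higher, 1 lower, Gzmm, and 5 not called, where 17.6% of all genes were called, 9.18% higher and 8.38% lower.

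Per kilobase of exonic length, which allows genes to be compared, Gzmb was the most abundant of the 10 in every group. It averaged 13304 CPM per kilobase in Foxp3UP against 6432 in MockUP libraries, and 6003 in Foxp3DN against 6484 in MockDN libraries. Gzma followed at 598 to 820 CPM per kilobase over the group means, then Gzmc at 308 to 502 and Prf1 at 116 to 319. Gzmk averaged 31.6 to 72.3 CPM per kilobase and Gzmf 24.8 to 44.6, while Gzmd, Gzme and Gzmm stayed at 1.63 to 7.25 and Gzmg under 1.

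The granzyme total, the summed CPM of the 9 granzymes, was almost wholly Gzmb. It came to 21055, 18703, 21439 and 20843 CPM in Foxp3UP libraries, against 11843, 7152, 10998 and 11049 CPM in MockUP libraries. Foxp3DN libraries had 9624, 9399, 9640 and 10149 CPM, and MockDN libraries 10535, 11299, 9369 and 10410 CPM. The total thus separated Foxp3UP from every other library, and was 1.78 to 2.62 times the MockUP value in the 4 pairs. The log2 ratio of the group means was 0.86 without MockUP replicate 2. It averaged 2.01% of all counts in Foxp3UP against 1.04% in MockUP libraries, and 0.967% in Foxp3DN against 1.05% in MockDN libraries. Gzmb held 93.1% ± 1.69 of the granzyme counts in Foxp3UP libraries and 90.1% ± 0.581 in MockUP libraries (SD, n = 4 each). It held 88.8% ± 2.19 in Foxp3DN and 89.6% ± 2.62 in MockDN libraries. The share of Gzma was 4.02% ± 0.70 in Foxp3UP and 6.31% ± 1.64 in MockUP libraries, and 7.09% ± 0.359 in Foxp3DN and 5.77% ± 0.61 in MockDN libraries. Granzymes other than Gzmb summed to 1102 to 1850 CPM in Foxp3UP libraries and to 652.4 to 1236 CPM in MockUP libraries, which overlapped.

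**Figure D3:**
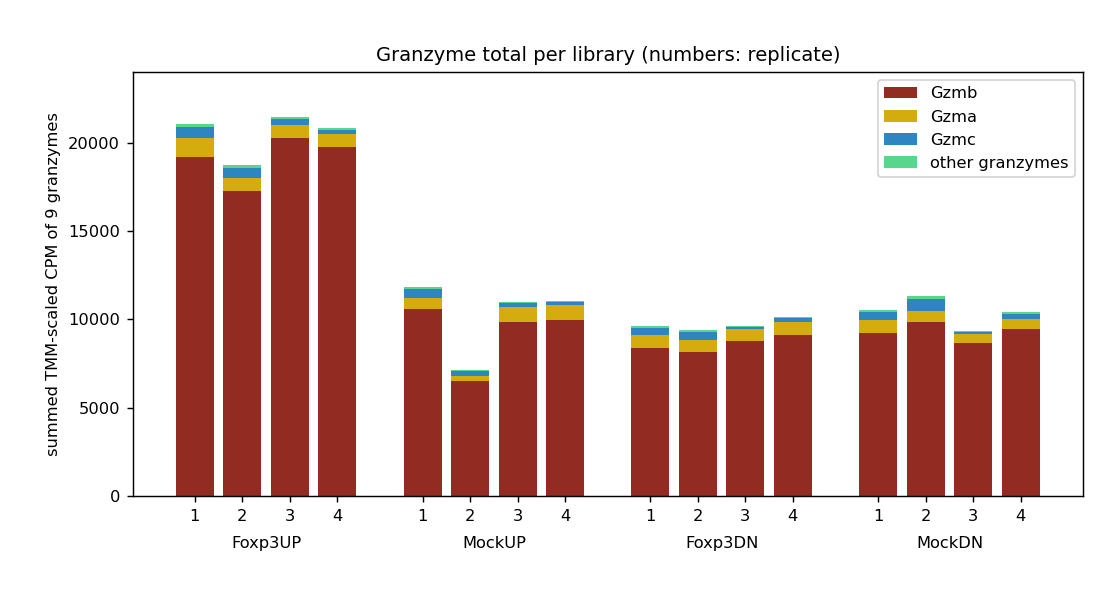
Summed TMM-scaled CPM of the 9 granzymes in each of the 16 libraries, stacked by gene, on a linear axis that starts at 0. Numbers under the bars are replicate numbers. The 4 Foxp3UP bars reach 18703 to 21439 CPM and all others stay at or under 11843 CPM, with Gzmb filling most of each bar.

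A further split ran across the groups. Replicates 1 and 2 carry sample numbers 1 to 8 and replicates 3 and 4 sample numbers 9 to 16, and the labels say nothing else of these sets. Gzmc, Gzmd, Gzme, Gzmf and Prf1 were higher in both libraries of replicates 1 and 2 than in either of replicates 3 and 4, in all 4 groups, as were 6.79% of all genes tested. The ratio of the means was 2.17 in Foxp3UP against 2.19 in MockUP libraries, and 2.44 in Foxp3DN against 2.81 in MockDN libraries for Gzmc. For Gzmf the ratio was 2.42 in Foxp3UP against 2.25 in MockUP libraries, and 2.90 in Foxp3DN against 3.43 in MockDN libraries, and over all groups its 8 libraries of replicates 1 and 2 (30.1 to 65.8 CPM) did not overlap the 8 of replicates 3 and 4 (10.3 to 26.2 CPM). Of all genes tested, 3.64% had no overlap between these sets of 8. For Prf1 the ratio lay between 1.41 and 1.90. Gzmm was lower in both libraries of replicates 1 and 2 in all 4 groups, as were 5.13% of all genes, with ratios of 0.396 in Foxp3UP against 0.397 in MockUP libraries, and 0.580 in Foxp3DN against 0.545 in MockDN libraries. Gzmb showed little of this split, with ratios of 0.912 in Foxp3UP against 0.862 in MockUP libraries, and 0.923 in Foxp3DN against 1.05 in MockDN libraries. A fit with a term per group and replicate set gave the log2 fold change within each set. For Gzmb in Foxp3UP against MockUP it was 1.09 within replicates 1 and 2 and 1.01 within replicates 3 and 4, both called (edgeR adjusted p = 0.00302 and 0.00219). That fit held all 16 libraries, so the p-values of the 2 sets share an estimate of the spread and are not independent. For Gzmk the same comparison gave 1.33 within replicates 1 and 2 and 1.08 within replicates 3 and 4 (edgeR adjusted p = 0.00497 and 0.00753). For Prf1 it gave 0.84 and 1.08 (edgeR adjusted p = 0.0149 and 0.0021), and for Gzmm −1.19 and −1.20 (edgeR adjusted p = 0.0396 and 0.0133). Each of these 4 members was thus called within both sets, from 2 libraries a group in each, and the other tested members were not. How many of all genes were called within both sets was not counted. Of all 13711 genes tested, 1360 were called within replicates 1 and 2, 608 higher and 752 lower. Within replicates 3 and 4, 1253 were called, 636 higher and 617 lower. Foxp3 itself gave 0.56 within replicates 1 and 2, which was not called (edgeR adjusted p = 0.0672), and 1.21 within replicates 3 and 4 (edgeR adjusted p = 0.00117).

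**Figure D4:**
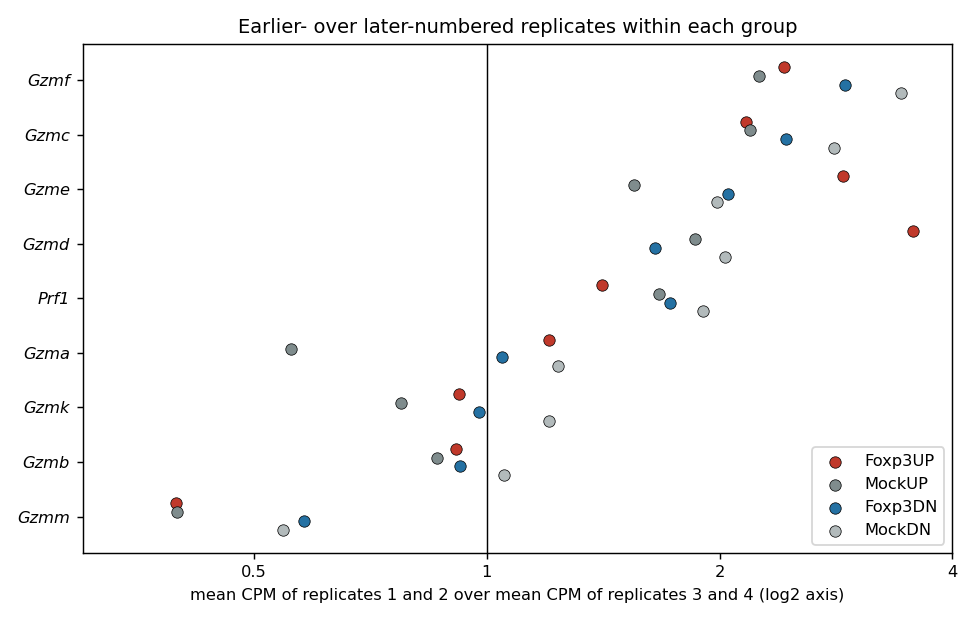
Mean CPM of replicates 1 and 2 over mean CPM of replicates 3 and 4 within each group, for the 9 tested members, on a log2 axis. Each point is 1 group, from 2 libraries over 2. Gzmf, Gzmc, Gzme, Gzmd and Prf1 lie right of 1 in all 4 groups, Gzmm lies left of 1 in all 4, and Gzmb lies between 0.862 and 1.05.

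The genes whose log2 CPM most resembled a member's over the 16 libraries were found among 8362 named genes with an average log2 CPM of at least 3, by Pearson correlation. For Gzmb they were Esm1, a secreted proteoglycan (r = 0.966), Tesc, a calcium-binding protein (r = 0.964), and Actg1, an actin (r = 0.956). For Gzmk they were Itm2b (r = 0.986), Lsp1, an actin-binding protein of leukocytes (r = 0.982), and Rac2, a small GTPase of blood cells (r = 0.976). For Prf1 they were Entpd1, the ATP-degrading ectoenzyme CD39 (r = 0.986), Dmwd (r = 0.979) and Trpv2, a cation channel (r = 0.973). For Gzma they were H2afy, a histone variant (r = 0.927), Naxe (r = 0.918) and Snapc5 (r = 0.916). The correlations are descriptions, since the 16 libraries share their groups and their replicate sets.

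Of 21 genes for granule loading, transport, release and self-protection, 3 were called higher in Foxp3UP than in MockUP, 1 lower and 17 were not called, where 12.1% of all genes were called. The list median log2 fold change was 0.18, against 0.0041 over all genes. The 3 were Lamp2, a lysosomal membrane protein (0.43 ± 0.10, edgeR adjusted p = 0.00793), Cst7, the inhibitor cystatin F that tunes granule cathepsins (0.57 ± 0.16, edgeR adjusted p = 0.0245), and Stxbp2, Munc18-2, which is needed for granule fusion (0.25 ± 0.08, edgeR adjusted p = 0.0366). Gnptab, a subunit of the enzyme that makes the mannose 6-phosphate tag of lysosomal proteins, was called lower, at 110.5 ± 13.2 CPM in Foxp3UP and 192.3 ± 44.1 CPM in MockUP libraries (SD, n = 4 each; −0.80 ± 0.13, edgeR adjusted p = 0.000885). Serpinb9, the inhibitor that shields the cell from its own granzyme B, was not called at 765.3 ± 46.4 CPM in Foxp3UP and 827.8 ± 88.4 CPM in MockUP libraries (−0.11 ± 0.11, edgeR adjusted p = 0.56). Srgn, the proteoglycan that packs granzymes in the granule, had 1483 ± 312.6 CPM in Foxp3UP and 1309 ± 576.8 CPM in MockUP libraries and was not called either (0.18 ± 0.25, edgeR adjusted p = 0.705). Without MockUP replicate 2, 5 of the 21 were called higher, with Lyst and Vamp8 added, and 1 lower, where 13.1% of all genes were called. In Foxp3UP against Foxp3DN, where 11.8% of all genes were called, 4 were called higher, with Lyst added (0.49 ± 0.13, edgeR adjusted p = 0.0202), and Gnptab lower. EdgeR called 0 of the 21 in Foxp3DN against MockDN, and 0 between MockUP and MockDN. In each, 0 had an unadjusted p under 0.05 and 0 were called by DESeq2. The difference of the effects was called for Gnptab alone (−0.74 ± 0.18, edgeR adjusted p = 0.0448), where 1.83% of all genes were called. With the replicate block, which called 5.91% of all genes, it was called for Lamp2 as well. Without MockUP replicate 2, where 354 of 13711 genes were called, it was called for Cst7 as well.

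Of 20 regulators of cytotoxic genes, 1 was called higher in Foxp3UP than in MockUP, 4 lower and 15 were not called, where 12.1% of all genes were called. The list median log2 fold change was −0.11. Prdm1, the effector regulator Blimp-1, had 129.3 ± 2.44 CPM in Foxp3UP and 75.1 ± 15.3 CPM in MockUP libraries (SD, n = 4 each; 0.78 ± 0.13, edgeR adjusted p = 0.000884). Tcf7, the factor TCF-1 of memory and stem-like T cells, had 43.9 ± 8.56 CPM in Foxp3UP and 168.8 ± 32.5 CPM in MockUP libraries (−1.94 ± 0.15, edgeR adjusted p = 7.5e-07). Id3, an inhibitor of E proteins (−1.48 ± 0.19, edgeR adjusted p = 0.000175), Zeb2 (−0.74 ± 0.16, edgeR adjusted p = 0.00551) and Myb (−0.52 ± 0.16, edgeR adjusted p = 0.0444) were also called lower. Factors known for driving granzyme and perforin genes were not called without a block: the log2 fold change was −0.22 ± 0.09 for Tbx21, which encodes T-bet (edgeR adjusted p = 0.125), −0.04 ± 0.13 for Eomes (edgeR adjusted p = 0.873) and 0.06 ± 0.12 for Runx3 (edgeR adjusted p = 0.799). The block by pair within UP and within DN, which called 25.3% of all genes, called Tbx21 lower and neither Eomes nor Runx3. That fit called 5 of the 20 regulators higher and 8 lower. DESeq2 without a block called 2 of the 20 higher and 6 lower, where it called 2040 of all 13711 genes. Tbx21 was called lower in Foxp3UP than in Foxp3DN (−0.38 ± 0.09, edgeR adjusted p = 0.0103), beside Tcf7 and Id3, with Prdm1 called higher (1.02 ± 0.13, edgeR adjusted p = 9.3e-05). In that comparison 11.8% of all genes were called. With the replicate block that comparison had 2 of the 20 higher and 5 lower, where 20.1% of all genes were called. The difference of the effects was called for Prdm1 (0.81 ± 0.18, edgeR adjusted p = 0.027), Tcf7 (−2.19 ± 0.21, edgeR adjusted p = 2.3e-05) and Id3 (−1.57, edgeR adjusted p = 0.00612). Of all genes, 1.83% were called for the difference. Without MockUP replicate 2, 3 of the 20 were called higher in Foxp3UP than in MockUP, with Hif1a and Il2rb added. Another 3 were called lower, Tcf7, Id3 and Zeb2, and the call of Myb was lost. In that fit 13.1% of all genes were called, 6.45% higher and 6.67% lower. Of the 20, 0 were called by edgeR, 0 had an unadjusted p under 0.05 and 0 were called by DESeq2 in Foxp3DN against MockDN, and likewise in MockUP against MockDN.

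The other protease genes at the chromosome 14 locus, 9 in number with Gzmn, Ctsg and the mast cell proteases, were near 0. Their summed level was at most 0.865 CPM in any library, none passed the filter on low counts, and Cma1, with at most 5 counts in MockUP libraries, Ctsg, Mcpt2, Mcpt4 and Mcpt8 were the ones with any count.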

How the data were processed

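Raw counts per gene for 16 libraries were deposited by the authors as 1 table. Per the submitters' processing notes, STAR 2.6.1, Subread 1.6.3 and the mm10 genome were used. The sources used here do not give the annotation release, the strandedness or the treatment of reads that fit several genes. Every column of values was mapped to a sample by its title, and 0 columns were left out. Libraries held 9389477 to 13226590 counts, and their number limits the precision.

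Genes were tested with edgeR 4.0.16 (R 4.3.3): filterByExpr with a minimum count of 10, TMM scaling and robust quasi-likelihood tests, with 1 coefficient per group over all 16 libraries, so that the groups share an estimate of the spread. Adjustment was by Benjamini-Hochberg over 13711 genes, and a gene was called at an adjusted p under 0.05. The procedure was checked on simulated counts. Named genes were all 10 members, Foxp3, the 3 genes most like Gzma, Gzmb, Gzmk and Prf1, up to 4 called genes per list and comparison, and the locus genes with a count. Serpinb9, Srgn, Eomes, Runx3 and, in Foxp3UP against MockUP, Tbx21 were named for their role after their values were seen, as were genes called only under an alternative. Members and lists were chosen with earlier results of these data known.

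Same-numbered libraries deviated from their group means together in every comparison. The correlations were 0.213 to 0.630 between Foxp3UP and MockUP, 0.298 to 0.582 between Foxp3DN and MockDN, 0.183 to 0.272 between Foxp3UP and Foxp3DN and 0.107 to 0.326 between MockUP and MockDN. All were over 0.1, so the numbers were taken to pair the libraries. A library correlated best with its own number in 4 of 4 cases in the first and second of these, but in 1 of 4 in each comparison across UP and DN. Alternatives changed scaling, filter, tool (DESeq2 1.42.0), block, replicate set and libraries.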

Additional observations from a re-analysis of the deposited data

Results flagged for a closer look

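The effect in UP cells differed from that in DN cells for a pair of members, by the test of the difference itself. For Gzmb the log2 fold change of Foxp3UP against MockUP exceeded that of Foxp3DN against MockDN by 1.16 ± 0.18 (edgeR adjusted p = 0.00392), and by 1.02 without MockUP replicate 2 (edgeR adjusted p = 0.000185). For Gzmk it did so by 1.09 ± 0.24 (edgeR adjusted p = 0.0264), and by 0.92 without MockUP replicate 2 (edgeR adjusted p = 0.0128). The Gzmk call held in 18 of 26 alternatives, with an edgeR adjusted p of up to 0.214 in the others.

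Gzme had 6.63 CPM in MockUP replicate 1, while the other 3 MockUP libraries had 3.03 to 3.61 CPM. The gap took up 0.839 of the group's range over 4 libraries, above Dixon's critical value for that number. At that level chance alone marks about 1 in 20 groups, and 44 groups of a gene's values were looked at.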

How the results depend on the processing

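Gzmb in Foxp3UP against MockUP was called in all 19 alternatives, with log2 fold changes of 0.91 to 1.12 when 1 library was left out. The alternatives that combine the replicate block with leaving out MockUP replicate 2, or that block by pair within UP and within DN, were chosen after seeing the data; the cause of the changes below was not tested. For Foxp3UP against MockUP 1654 genes were called, against 639 with only the 8 libraries compared, 2655 with the block without MockUP replicate 2 and 3475 with the block by pair. For the difference of effects 251 were called, against 811 with the replicate block, 1283 with the block without MockUP replicate 2, 1739 with the block by pair, 70 within replicates 1 and 2 and 651 by DESeq2. For Foxp3UP against Foxp3DN 1616 were called, against 2755 with the block, 770 within replicates 1 and 2 and 2486 with the 8 libraries. For MockUP against MockDN 1 was called, against 2 without a filter, 2 within replicates 1 and 2, 3 with the block without MockUP replicate 2 and 8 by DESeq2. Leaving out 1 library gave 1055 (without Foxp3UP replicate 1) to 1972 calls for Foxp3UP against MockUP, 101 to 524 for the difference, 865 to 1484 for Foxp3UP against Foxp3DN and 1 to 2 for MockUP against MockDN. Per kilobase the share of Gzmb was 90.3% in Foxp3UP against 86.2% in MockUP libraries, and 84.5% in Foxp3DN against 85.5% in MockDN libraries. The log2 ratio of the granzyme total in Foxp3DN against MockDN was −0.20 within replicates 1 and 2 and 0.00069 within replicates 3 and 4.

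Signs turned only for log2 fold changes that were not called without a block. In Foxp3UP against MockUP, Gzma was −0.19 within replicates 3 and 4, and within replicates 1 and 2 Gzmd was 0.24 and Gzme 0.037. In Foxp3DN against MockDN, Gzmd was 0.014 within replicates 3 and 4 and Gzmk −0.033 within replicates 1 and 2. For the difference, Gzma was −0.51, Gzmd −0.70 and Gzme −0.44 within replicates 3 and 4, Gzma −0.12, Gzmd −0.11 and Gzme −0.20 with the block without MockUP replicate 2, and Gzmf 0.00026 within replicates 1 and 2. In MockUP against MockDN, Gzma was −0.49 and Gzmm −0.28 within replicates 1 and 2, Gzmb 0.13 and Gzmk 0.19 within replicates 3 and 4, Gzmm −0.019 with the block, and Gzmb 0.11, Gzmk 0.051 and Gzmm −0.0035 with the block without MockUP replicate 2. Leaving out 1 library gave −0.41 to 0.43 for Gzmd and −0.48 to 0.082 for Gzme in Foxp3UP against MockUP. In Foxp3DN against MockDN it gave −0.68 to 0.042 for Gzmc, −0.43 to 0.12 for Gzmd, −0.71 to 0.03 for Gzmf and −0.18 to 0.35 for Gzmm. For the difference it gave −0.10 to 0.27 for Gzma, −0.21 to 0.62 for Gzmd, −0.16 to 0.47 for Gzme and −0.41 to 0.33 for Gzmf. In MockUP against MockDN it gave −0.0061 to 0.36 for Gzma, −0.085 to 0.12 for Gzmb, −0.21 to 0.04 for Gzmk and −0.29 to 0.28 for Gzmm. Counts of 0 to 127 a library limit Gzmd, Gzme, Gzmg and Gzmm.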
